A study of Mus musculus with 20 samples.

Results

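The genes described here are 7 enzymes of cholesterol synthesis, Hmgcs1, Idi1, Fdps, Fdft1, Sqle, Cyp51 and Dhcr7, taken by symbol from a hypothalamic count table of 54532 genes; all 7 were found. They are followed in 20 RNA sequencing libraries from male C57BL/6J mice on either a control diet or Gly-Low, a diet made to lower glycation, whose components the labels used here do not list. The ageing arm held young control (3 months of age, control diet for 1 week, 4 libraries), old control (25 months, control diet for 5 months, 4 libraries) and old Gly-Low (25 months, Gly-Low for 5 months, 3 libraries). The acute arm held acute control (5 libraries) and acute Gly-Low (4 libraries), both from mice 4 months old that had eaten the diet for 1 week. The series set out to see which genes change after acute treatment and how prolonged treatment bears on genes that change with age. Whether a library is 1 animal is not in the labels, and p-values thus reflect library-to-library spread, which may be technical.

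Cholesterol is built from acetyl-CoA by way of mevalonate, isoprenoid units and squalene, and the brain makes almost all of its own because plasma lipoproteins do not cross the blood-brain barrier. In the brain oligodendrocytes use it for myelin and astrocytes pass it to neurons on apolipoprotein E. The genes of the pathway share a control: when sterol in the endoplasmic reticulum is low, SCAP carries the transcription factor SREBP2 to the Golgi, where it is cut and released, and INSIG proteins hold it back when sterol is plentiful. Hmgcs1 makes HMG-CoA, the precursor of mevalonate. Idi1 interconverts isopentenyl and dimethylallyl diphosphate, Fdps joins them into farnesyl diphosphate, and Fdft1 condenses that into squalene. Sqle oxidises squalene, Cyp51 removes a methyl group from lanosterol, and Dhcr7 reduces 7-dehydrocholesterol to cholesterol at the end of a late branch.

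Because SREBP2 is known to bind sterol regulatory elements near the start of these genes, together with CCAAT and GC boxes, the promoters with a RefSeq window (GRCm38.p6) are shown first, for Hmgcs1, Idi1, Dhcr7 and Cyp51 (4 of the 7 genes). Each is written 5′ to 3′ on the strand of its gene and stops where a GENCODE exon begins. Capitals mark the searched letters on either strand, a match on the opposite strand appearing as its reverse complement. The sterol regulatory element was searched as TCACNCCAC. The CCAAT box was searched by the letters of its name, and the GC box as GGGCGG.
Hmgcs1, chr13:119690101-119690350, plus strand: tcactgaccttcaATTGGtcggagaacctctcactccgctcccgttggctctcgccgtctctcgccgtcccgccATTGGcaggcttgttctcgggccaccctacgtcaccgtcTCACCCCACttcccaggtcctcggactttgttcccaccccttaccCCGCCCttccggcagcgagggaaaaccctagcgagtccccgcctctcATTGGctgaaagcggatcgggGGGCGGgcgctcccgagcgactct
Idi1, chr13:8885356-8885500, plus strand: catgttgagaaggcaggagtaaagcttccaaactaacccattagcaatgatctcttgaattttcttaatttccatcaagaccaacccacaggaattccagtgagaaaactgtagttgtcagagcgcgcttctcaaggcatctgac
Dhcr7, chr7:143822917-143823144, plus strand: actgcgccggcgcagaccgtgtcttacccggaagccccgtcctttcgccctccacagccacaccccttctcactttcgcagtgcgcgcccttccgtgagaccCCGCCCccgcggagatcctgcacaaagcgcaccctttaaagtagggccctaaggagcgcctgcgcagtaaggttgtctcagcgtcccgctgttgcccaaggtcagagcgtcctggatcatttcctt
Cyp51, chr5:4104747-4104947, minus strand: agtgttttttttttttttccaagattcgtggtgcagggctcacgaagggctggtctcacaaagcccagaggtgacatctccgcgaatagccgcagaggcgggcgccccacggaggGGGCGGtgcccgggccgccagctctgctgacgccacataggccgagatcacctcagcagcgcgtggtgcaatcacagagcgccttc

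The sterol element occurred in 1.05% of the 32851 windows of 250 bases before a start site, and among the 4 genes it was found in Hmgcs1, as TCACCCCAC 137 bases before the start. A CCAAT box was found for all 4 genes and a GC box for all 4, counting every window of a gene (Dhcr7 has 3) and the bases of Idi1 and Cyp51 that are not printed; these letters stood in 33.8% and 32.7% of all windows. The E-box CACGTG was found for 1 of the 4, Dhcr7, in 1 of its 3 windows, and stood in 6.02% of all windows. A match describes letters in a window and is not a measured binding site. Sqle, Fdps and Fdft1 are named without a sequence.

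In GRCm38 the genes lie on 6 chromosomes. Hmgcs1 (ENSMUSG00000093930) spans 119690379 to 119708260 and Idi1 (ENSMUSG00000058258) spans 8885501 to 8892451, both on the plus strand of chromosome 13. Fdps (ENSMUSG00000059743) spans 89093588 to 89101959 on the minus strand of chromosome 3. Fdft1 (ENSMUSG00000021273) spans 63145150 to 63179578 on the minus strand of chromosome 14. Sqle (ENSMUSG00000022351) spans 59315077 to 59331192 on the plus strand of chromosome 15. Cyp51 (ENSMUSG00000001467) spans 4081145 to 4104746 on the minus strand of chromosome 5, and Dhcr7 (ENSMUSG00000058454) spans 143823145 to 143848410 on the plus strand of chromosome 7. The libraries were not directional, so an overlapping gene on the opposite strand can affect the counts of these genes. Whether reads on shared bases were added or left out is not given in the sources used here. Exon bases shared with such a gene made up 18.3% of Fdft1 (Ctsb, a highly expressed protease gene with 8095 to 30746 counts per library), 3.76% of Cyp51 (Akap9), 12.1% of Hmgcs1 (Gm48342, at most 20 counts) and 9.22% of Idi1 (Gm48574, at most 1 count). Sqle and Dhcr7 overlapped no other gene.

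Library totals ran from 15848372 to 27399753 counts. For the tissue label 9 hypothalamic markers were read, among them the neuropeptide genes Agrp, Hcrt, Pmch, Avp, Oxt and Trh. All 9 had counts in every library, Rax as few as 2. Choroid plexus and meningeal fibroblast markers also had counts in every library, so the presence of counts alone does not single out the hypothalamus. Some libraries stood apart. The summed level of 7 pituitary markers was 60700, 32300 and 3630 CPM (reads scaled to library size with TMM factors) in acute controls 2, 5 and 3, and 18.7 to 1200 CPM in the other libraries. Mitochondrial transcripts took 17.0% to 23.3% of counts in acute Gly-Low and 5.35% to 9.11% in acute control, without overlap, and 4.94% to 17.2% in the ageing arm. The slope of a library's log2 level on log2 transcript length, relative to the mean library, was -0.43 to -0.23 in acute Gly-Low and 0.14 to 0.23 in acute control, so long transcripts read lower and short ones higher in acute Gly-Low. Results that rest on the acute arm are therefore given beside these values.

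Per kilobase of transcript, Hmgcs1 had the highest mean level over the 20 libraries, 94.5 CPM per kb, followed by Fdft1 at 53.7, Sqle at 40.4, Cyp51 at 35.2, Idi1 at 19.9 and Dhcr7 at 12.3 CPM per kb. Fdps was far below them at 0.708 CPM per kb, from 3 to 49 reads per library, against at least 249 reads for every other member. The GENCODE annotation places a same-strand gene, Gm43738, over Fdps. It covers 76.4% and 81.3% of the bases of the 2 Fdps transcripts in the basic set (1237 and 1382 bases) and had 0 counts in all 20 libraries. How reads lying on 2 genes were counted is not given in the sources used here, so the level of Fdps is uncertain.

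Idi1 and Dhcr7 varied most between groups. The group means of Idi1 were, in rising order, 40.9 ± 3.02 CPM in old Gly-Low (SD, n = 3), 45.3 ± 17.0 in old control (n = 4), 49.0 ± 11.3 in acute control (n = 5), 58.7 ± 7.70 in young control (n = 4) and 105 ± 13.1 in acute Gly-Low (n = 4). Only at the step to acute Gly-Low did the neighbouring ranges of mean ± SD not overlap. For Dhcr7 acute Gly-Low stood at the other end, while the old groups again lay below the young and acute controls. The Dhcr7 means were 19.4 ± 5.74 CPM in acute Gly-Low, 27.7 ± 6.14 in old Gly-Low and 28.0 ± 2.36 in old control. They were 40.2 ± 4.52 in young control and 44.4 ± 1.91 in acute control. Here those ranges were apart only at the step from old to young control. Sqle was lowest in acute Gly-Low at 76.2 ± 10.8 CPM and lay between 106 ± 17.8 (old control) and 126 ± 14.2 (acute control) in the other groups.

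For Hmgcs1 and Cyp51 the highest group mean was 1.21 and 1.22 times the lowest, and neighbouring groups overlapped throughout. Hmgcs1 ran from 288 ± 11.3 CPM in old Gly-Low to 350 ± 63.3 in acute control, and Cyp51 from 123 ± 3.43 in old Gly-Low to 150 ± 25.7 in young control. Fdft1 ran from 141 ± 21.9 in acute Gly-Low to 201 ± 61.2 in old control. For Hmgcs1 the acute and old control groups varied more than the Gly-Low groups. Its coefficient of variation was 18.1% in acute control and 21.2% in old control, against 4.35% and 3.93% in acute and old Gly-Low. The order was the same for Idi1 and Cyp51. For Dhcr7 it was the reverse, 4.31% and 8.4% in acute and old control against 29.6% and 22.2% in acute and old Gly-Low. For Sqle, Fdft1 and Fdps the order differed between the arms.

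**Figure D1:**
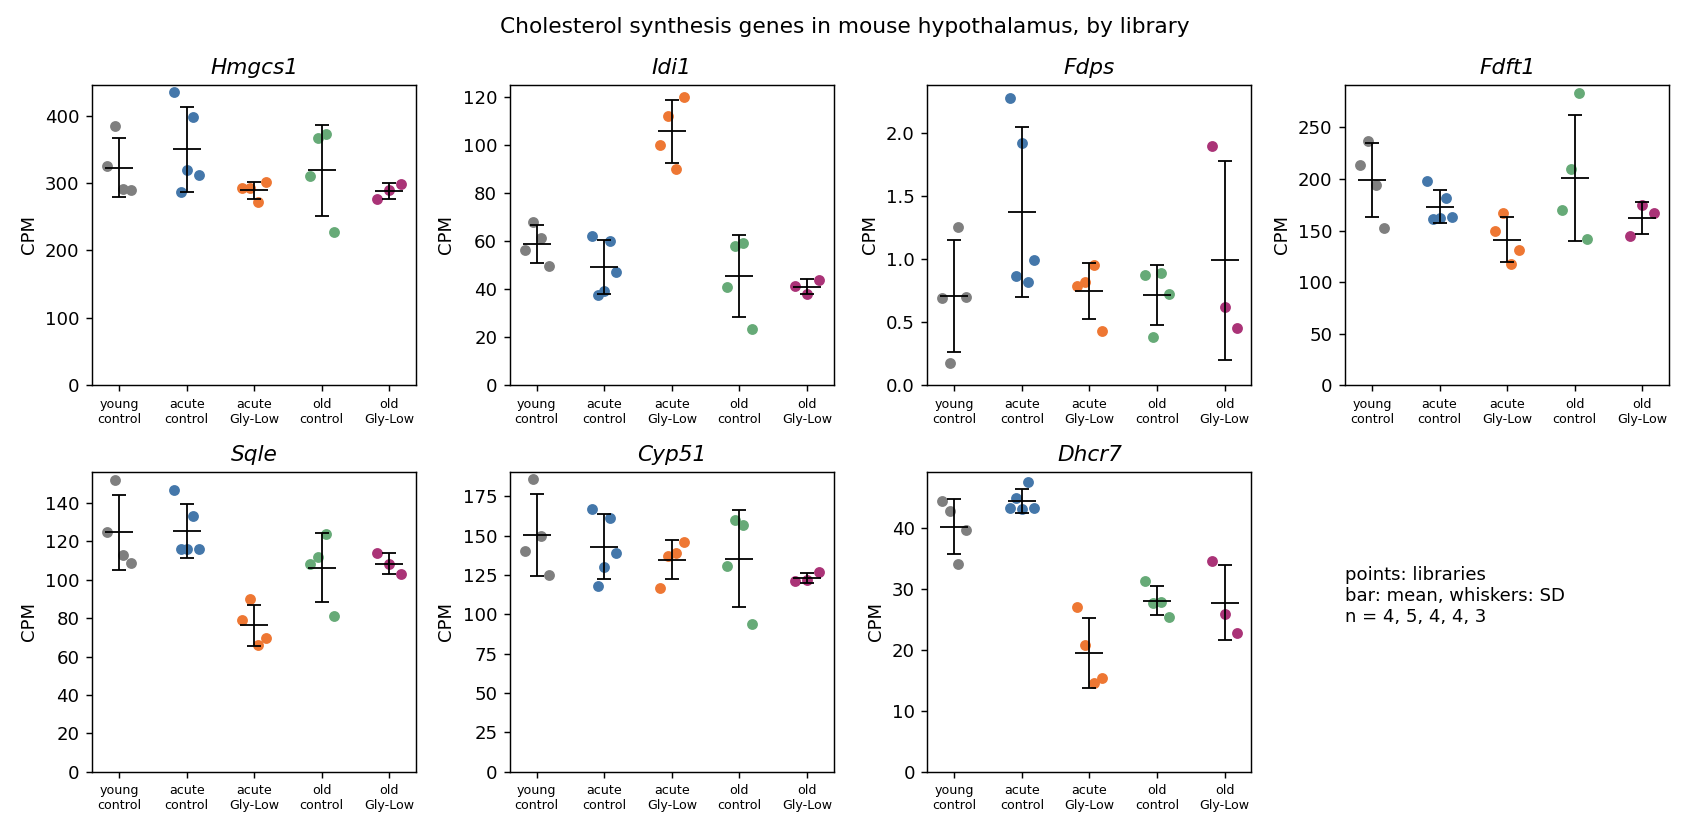
Level of each gene in CPM (vertical axis, starting at 0) in the 5 groups; points are libraries, bars the group mean and whiskers the SD (n = 4, 5, 4, 4 and 3). The 4 acute Gly-Low libraries stand above all others for Idi1, and 3 of the 4 lie below all other libraries for Sqle and for Dhcr7.

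After 1 week of Gly-Low in young mice the 7 genes did not move in the same direction. Idi1 rose, with a log2 fold change of 1.12 ± 0.17 (SE), while Sqle fell by 0.71 ± 0.14 and Dhcr7 fell by 1.18 ± 0.18. The other 4 genes did not pass the threshold, an adjusted p under 0.05 in edgeR's quasi-likelihood test over 17161 genes. So 3 of the 7 were called, 1 up and 2 down. In this comparison 58.3% of all genes tested were called, 27.8% up and 30.5% down, so the share of members called is no higher than that of genes in general. The median log2 fold change was -0.28 over the 7 genes and -0.07 over all genes.

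Idi1, the isomerase, stood at 61.8, 37.5, 39.2, 59.8 and 47.0 CPM in the 5 acute controls and at 100, 112, 89.9 and 120 CPM in the 4 acute Gly-Low libraries. Every treated library lay above every control, and above every library of the ageing arm, whose highest value was 67.8 CPM. The adjusted p was 5.9e-05.

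Sqle, the epoxidase that commits squalene to sterols, stood at 147, 116, 116, 133 and 116 CPM in acute control and at 79.2, 90.1, 66.1 and 69.6 CPM in acute Gly-Low. All 4 treated libraries were below all 5 controls, and the adjusted p was 0.000478. Dhcr7, the last reductase, read 43.2, 44.9, 43.0, 47.5 and 43.2 CPM in the controls and 27.0, 20.8, 14.6 and 15.4 CPM in the treated libraries. These groups did not overlap either (adjusted p = 5.15e-05), and the controls spread over a far narrower range than those of Idi1. How many of all genes separated the acute groups without overlap was not counted.

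Hmgcs1, the first of the 7 in the pathway, had values of 435, 287, 319, 398 and 311 CPM in acute control and 292, 293, 271 and 301 CPM in acute Gly-Low. Of the 4 treated libraries, 3 lay at the low end of the control range and 1 below it, and the log2 fold change was -0.26 ± 0.15 (adjusted p = 0.146). Fdft1, squalene synthase, read 198, 161, 162, 182 and 163 CPM in control and 150, 167, 117 and 131 CPM in Gly-Low, with 1 treated library inside the control range (-0.28 ± 0.14, adjusted p = 0.0951). Cyp51 read 167, 118, 130, 161 and 139 CPM in control and 117, 137, 139 and 146 CPM in Gly-Low, largely overlapping (-0.07 ± 0.14, adjusted p = 0.662). Fdps rested on 23 to 48 reads in control and 7 to 21 reads in Gly-Low (-0.84 ± 0.46, adjusted p = 0.134).

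**Figure D2:**
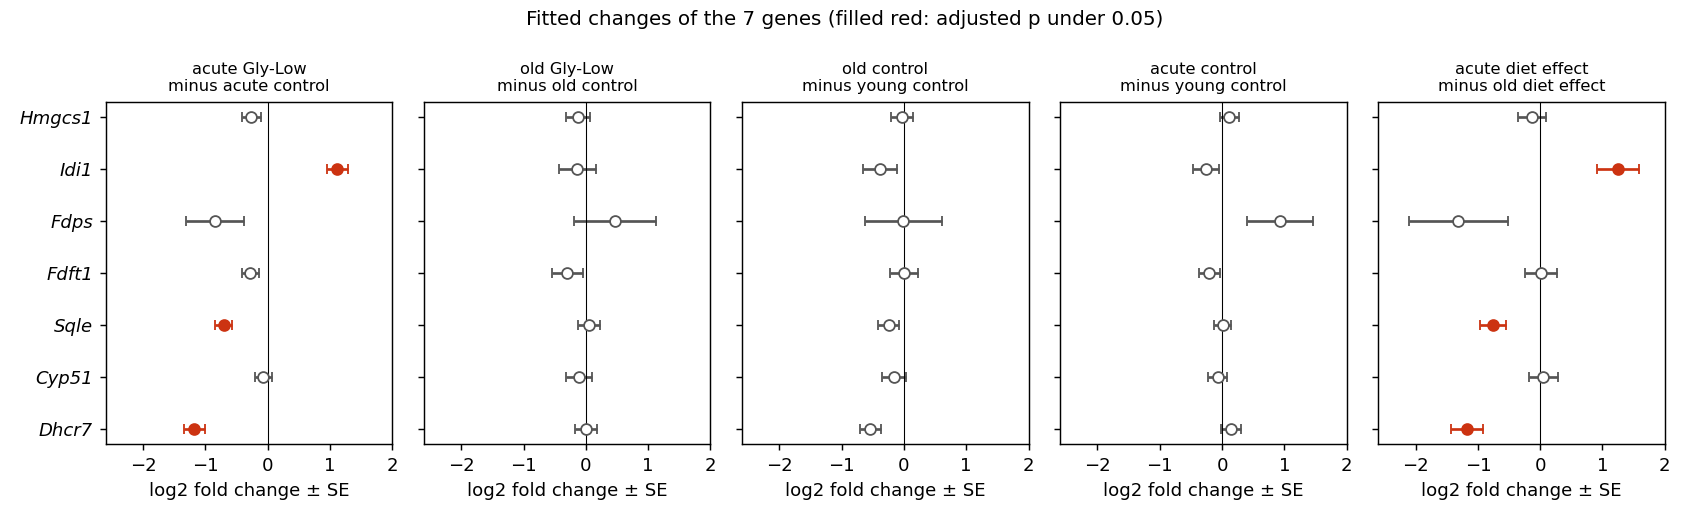
Log2 fold change (horizontal axis) with its SE for each gene in 5 comparisons, from left the acute diet, the old diet, age, the young groups and the difference of the 2 diet effects; filled red points have an adjusted p under 0.05. The acute diet and the difference between arms hold filled points, for Idi1 above 0 and for Sqle and Dhcr7 below 0, and the other 3 panels hold none.

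In the acute comparison the changes of genes varied with transcript length. The median log2 fold change was 0.99 among genes with transcripts of 877 to 993 bases and -1.06 among those over 8317.5 bases. Genes of like length to Idi1 (2966 to 3087 bases, 429 genes) had a median log2 fold change of -0.29, against 1.12 for Idi1. Genes of like length to Sqle and Dhcr7 (2634 to 2742 bases) had a median of -0.28, against -0.71 and -1.18. For Hmgcs1 and Fdft1, whose value is -0.26 and -0.28, the like-length median was -0.40, and for Cyp51 (-0.07) it was -0.51. With each library's length trend taken out by an offset, Idi1 (1.39 ± 0.18), Sqle (-0.54 ± 0.14) and Dhcr7 (-1.02 ± 0.18) still passed. Fdps (-1.43 ± 0.47, adjusted p = 0.0208) and Cyp51, which turned to 0.41 ± 0.14 (adjusted p = 0.0259), passed as well, so that 5 of 7 were called. With the offset 23.7% of all genes were called higher and 23.9% lower.

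When the length slope of the libraries entered as a covariate, with all 20 libraries fitted together, 4 of 7 were called and all 4 were lower. In that fit 3807 of 19061 genes were called, 11.2% of all genes higher and 8.76% lower. Sqle (-1.13 ± 0.19) and Dhcr7 (-1.31 ± 0.27) kept their calls, Hmgcs1 (-0.69 ± 0.21, adjusted p = 0.0274) and Fdft1 (-1.10 ± 0.18, adjusted p = 0.00026) gained one, and Idi1 was no longer called at 0.54 ± 0.32 (adjusted p = 0.257). The slope differed between the acute groups without overlap, so in this fit diet and slope cannot be told apart within the acute arm. Without the 3 acute controls high in pituitary markers, Idi1 was 0.77 ± 0.18, Sqle -0.90 ± 0.17 and Dhcr7 -1.25 ± 0.23, all still called, and Hmgcs1 passed too (-0.55 ± 0.17, adjusted p = 0.0181). Without acute Gly-Low 2, Fdft1 passed at -0.38 ± 0.15 (adjusted p = 0.0468). Sqle and Dhcr7 were called lower in each of the 20 alternatives and Idi1 was called higher in 19.

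**Figure D3:**
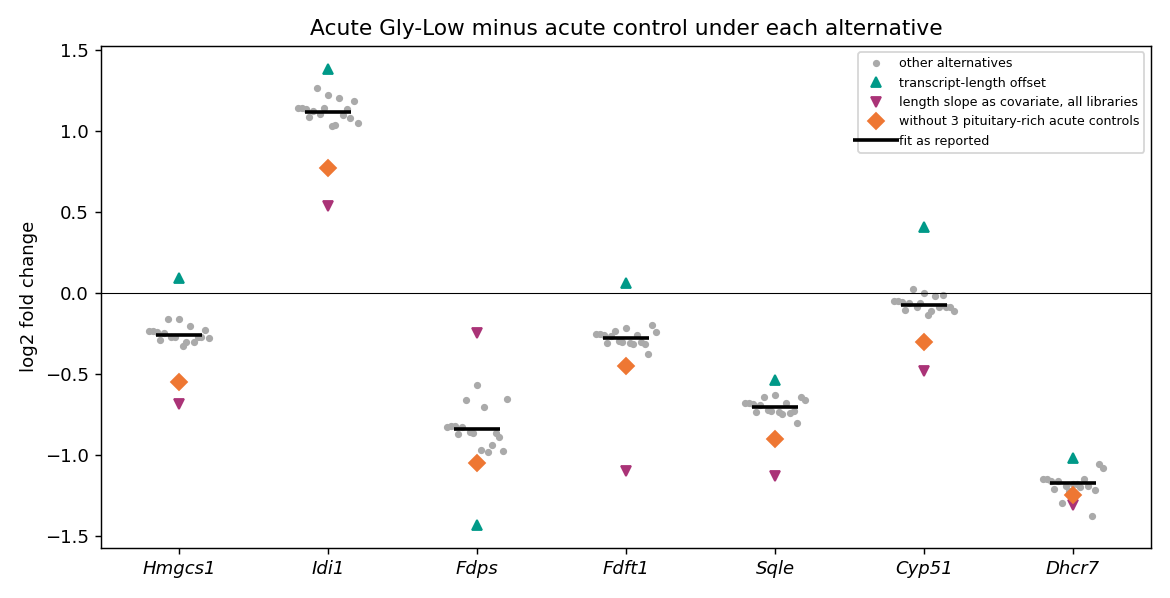
Log2 fold change of each gene between acute Gly-Low and acute control (vertical axis) as reported (black bar) and under each of 20 alternatives (points). Dhcr7 and Sqle stay below 0 and Idi1 above 0 throughout; the 2 ways of treating transcript length pull Hmgcs1, Fdft1 and Cyp51 to opposite sides of the reported value.

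Markers of cell types also moved in the acute comparison. Of 10 oligodendrocyte markers 4 rose, 1 fell and 5 did not pass, with a summed level of 5580 to 10200 CPM in control and 8200 to 11700 in Gly-Low. Of 8 markers of oligodendrocyte precursors, 1 rose, 5 fell and 2 did not pass (274 to 354 CPM against 145 to 169). Of 7 astrocyte markers 1 rose, 3 fell and 3 did not pass (4080 to 5110 CPM against 3610 to 4330), and of 7 neuron markers 5 fell and 2 did not pass (4420 to 5410 CPM against 3040 to 3480). Of 6 microglia markers 2 rose and 2 fell (215 to 271 CPM against 224 to 243), and of 6 endothelial markers 5 fell (90.9 to 145 CPM against 54.1 to 63.9). Of 5 choroid plexus markers 2 rose and 2 fell (35.4 to 42.4 CPM against 31.1 to 44.9), and of 5 meningeal fibroblast markers 3 rose (40.4 to 81.8 CPM against 85.3 to 188). Of 7 pituitary markers 6 fell (18.7 to 60700 CPM against 43.1 to 226), and of 9 hypothalamic markers 5 rose and 1 fell (443 to 1190 CPM against 1440 to 2540). Pitx1, Lhb and Fshb of the pituitary list had no count in 12, 1 and 1 libraries, and no marker of the other lists was at 0 in any library. Among all genes 27.8% rose and 30.5% fell in this comparison, where changes varied with transcript length. The marker transcripts ran from 498 bases (Mobp) to 8121 (Cspg4), and the part of length in their shifts was not tested. In bulk tissue fewer cells of a type and less RNA per cell cannot be told apart. The part of these marker shifts in the results on the enzymes was not tested.

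The remaining 14 enzymes of the pathway were as divided as the 7: 2 rose, 6 fell and 6 did not pass. Together, of 21 enzymes 3 rose, 8 fell and 10 did not pass, that is, 52.4% called against 58.3% of all genes. Mvd (-0.91 ± 0.23), which makes the isopentenyl unit that Idi1 works on, Lss (-0.72 ± 0.18), which closes the sterol rings, Hsd17b7 (-0.53 ± 0.14) and Lbr (-0.43 ± 0.17) were among those that fell. The medians of genes of like length were 0.19 for Mvd, -0.72 for Lss, -0.29 for Hsd17b7 and -0.41 for Lbr. Lss was no longer called with the length offset (-0.077, adjusted p = 0.733), with the slope covariate (-0.076, adjusted p = 0.889) or without the 3 acute controls high in pituitary markers (-0.56, adjusted p = 0.0808). Mvd was no longer called with the slope covariate (-0.40 ± 0.39, adjusted p = 0.511).

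The 2 others that rose were Pmvk, phosphomevalonate kinase (0.82 ± 0.13, 23.9 to 33.7 CPM against 44.8 to 57.8), and Msmo1, a methyl sterol oxidase (0.75 ± 0.16, 127 to 209 CPM against 230 to 328). Pmvk has a short transcript, 1067 bases, and the median of genes of like length was 0.84; for Msmo1 the like-length median was 0.10. Pmvk was not called with the length offset (-0.015, adjusted p = 0.923) or the slope covariate (0.13, adjusted p = 0.658). Msmo1 was not called with the slope covariate (0.099, adjusted p = 0.83) or without the 3 acute controls high in pituitary markers (0.46, adjusted p = 0.0731).

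**Figure D4:**
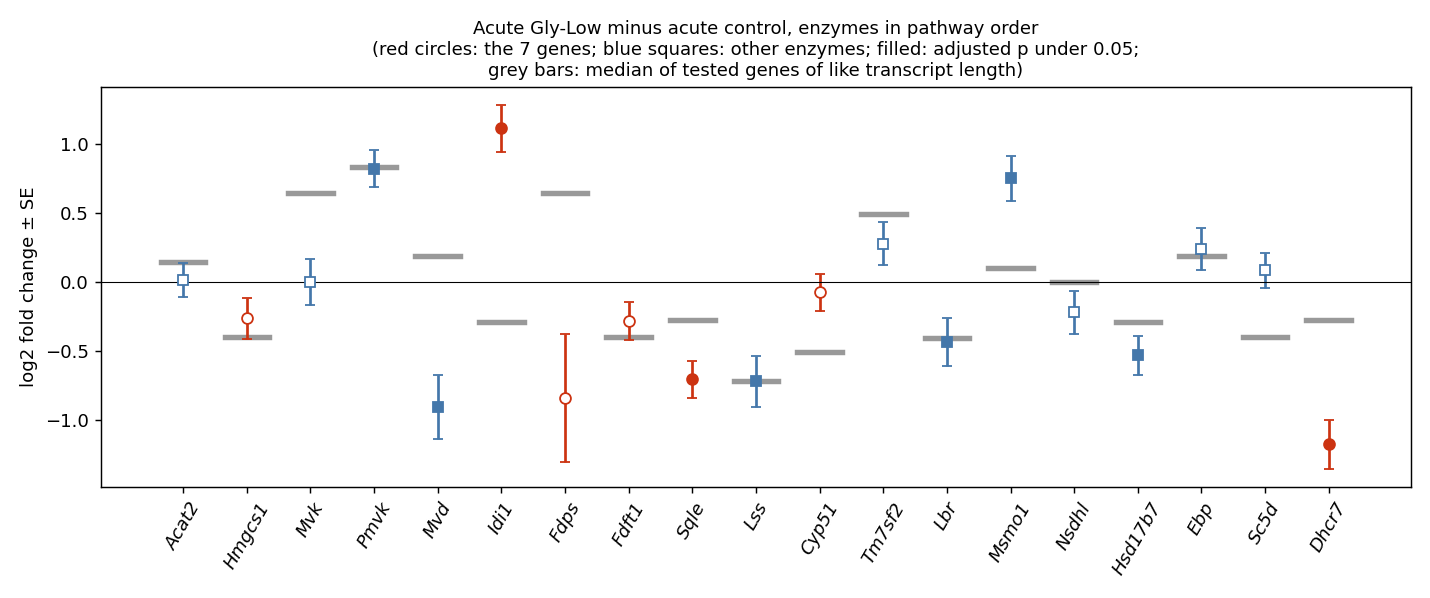
Log2 fold change with its SE (vertical axis) of enzymes in pathway order between acute Gly-Low and acute control; red circles are the 7 genes, blue squares the other enzymes, filled symbols passed the test, and grey bars are the median of genes of like transcript length. Idi1 lies far above its grey bar, and Mvd and Dhcr7 lie well below theirs.

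The genes that control the pathway and respond to the same factor were given with it. Of 7 genes of SREBP regulation, 1 rose, 5 fell and 1 did not pass. Over all genes tested 27.8% rose and 30.5% fell. Among genes of like length, 57.3% fell for Srebf2, 50.3% for Scap and 50.3% for Srebf1. Srebf2, which encodes SREBP2, fell by 0.78 ± 0.18, Scap fell by 1.46 ± 0.29, and Srebf1, the factor of fatty acid synthesis, fell by 1.22 ± 0.31. Insig2 rose (0.51 ± 0.13), and Insig1, itself a target of SREBP2, was at -0.18 ± 0.13 (adjusted p = 0.234). With the length slope as a covariate the sign turned for Srebf2 (1.68, adjusted p = 0.00225), Scap (1.41, adjusted p = 0.0707) and Srebf1 (1.78, adjusted p = 0.0354). The medians of genes of like length, with no such correction, were -0.72, -0.61 and -0.61. Srebf2 and Srebf1 were also not called with the length offset (-0.16 and -0.62, adjusted p = 0.436 and 0.0872), with all libraries in one fit (-0.80 and -1.24, adjusted p = 0.158 and 0.101) and without the 3 acute controls high in pituitary markers (-0.47 and -0.59, adjusted p = 0.0717 and 0.162). Insig2 was not called in any of 3 alternatives: the offset (-0.13), the slope covariate (0.25) and the fit without those 3 controls (0.32).

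The counts that follow stand against 27.8% of all genes rising and 30.5% falling. Of 6 genes listed under sterol uptake, its control and SREBP2 targets, 1 rose, 3 fell and 2 did not pass. Acly, which supplies acetyl-CoA, fell by 1.61 ± 0.15 and Mylip by 0.56 ± 0.14, while Erg28 rose by 0.50 ± 0.11. Erg28 turned to -0.54 with the slope covariate (adjusted p = 0.0146) and to -0.24 with the offset (adjusted p = 0.0727), and Mylip was at -0.65 with the covariate (adjusted p = 0.0557). Of 7 genes of sterol efflux and its receptors 1 rose, 4 fell and 2 did not pass, with Abcg1 (-1.93 ± 0.16) and Abcg4 (-2.05 ± 0.25), 2 sterol exporters, among those that fell, and Nr1h3, a sterol-sensing nuclear receptor, higher by 1.05 ± 0.30. With the slope covariate Abcg4 (-0.58, adjusted p = 0.393) and Nr1h3 (1.30, adjusted p = 0.0582) were no longer called, and Nr1h3 was also lost without acute Gly-Low 4 (0.68, adjusted p = 0.0518). Of 10 genes of sterol turnover and trafficking 9 were tested, and 1 rose, 5 fell and 3 did not pass. Cyp46a1, which clears cholesterol from neurons, fell by 1.60 ± 0.19, and the 2 partners that carry cholesterol out of lysosomes split, Npc1 at -1.73 ± 0.18 and Npc2 at 0.98 ± 0.13. With the slope covariate Npc1 was still called, while Cyp46a1 (-0.23, adjusted p = 0.679) and Npc2 (0.16, adjusted p = 0.518) were not.

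The isoprenoid branches that start from the products of Idi1 and Fdps gave 3 up, 2 down and 3 not passed of 8. Ggps1, which makes geranylgeranyl diphosphate, rose (0.81 ± 0.15), as did Fnta (1.05 ± 0.13), while Fntb, its partner subunit in farnesyltransferase, fell by 1.28 ± 0.18. Ggps1 was not called with the slope covariate (0.44, adjusted p = 0.187). Of 9 genes of fatty acid synthesis none rose, 8 fell and 1 did not pass, with Acaca at -2.02 ± 0.20 and Fasn at -1.19 ± 0.25. Of all genes 27.8% rose and 30.5% fell. In the longest length class, which holds Acaca and Fasn, 70.4% fell. The median of the list was -0.71, against -0.07 for all genes. The like-length medians were -1.06 for Acaca and Fasn, -0.71 for Scd1 (-0.60) and -0.81 for Scd2 (-1.04). With the slope covariate Acaca was at -0.24 (adjusted p = 0.475) and Fasn turned to 2.02 (adjusted p = 0.0436). Fasn was also not called with the offset (-0.13, adjusted p = 0.626) or with all libraries in one fit (-1.21, adjusted p = 0.141). Scd2 was not called with the offset (adjusted p = 0.086).

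Between old and young control mice no member passed the test (0 of 7 in edgeR, 1 of 7 at an unadjusted p under 0.05). Over all 18281 genes 0.0328% were called, 6 genes, so the background was nearly empty as well. Dhcr7 had the largest difference of the 7. It read 44.4, 42.7, 34.1 and 39.6 CPM in young control and 31.2, 27.7, 27.9 and 25.4 CPM in old control, and the 2 groups did not overlap. The share of all genes without overlap was not counted. The log2 fold change of Dhcr7 was -0.54 ± 0.17 (adjusted p = 0.318).

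Idi1 read 56.3, 67.8, 61.1 and 49.5 CPM in young control and 40.8, 58.0, 59.2 and 23.2 CPM in old control, overlapping in range (-0.38 ± 0.27, adjusted p = 0.736). Sqle was at -0.25 ± 0.17, Cyp51 at -0.16 ± 0.19, Hmgcs1 at -0.03 ± 0.18, Fdft1 at -0.002 ± 0.23 and Fdps at -0.008 ± 0.62. In limma-voom with quality weights, which called 3920 genes, Dhcr7 (-0.52 ± 0.14, adjusted p = 0.0233) and Idi1 (-0.56 ± 0.18, adjusted p = 0.0493) passed, and DESeq2 called none of the 7. The sign of Dhcr7, Idi1, Sqle and Cyp51 was negative in every one of 24 alternatives. Of the other 14 enzymes none passed, none at an unadjusted p under 0.05 either, and their median was -0.05, against 0.02 for all genes.

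Gly-Low for 5 months in old mice gave no call among the 7, in edgeR or in any of the alternatives, DESeq2 and limma-voom included, and 0 of 7 had an unadjusted p under 0.05. No gene of the table was called in this comparison either (0% of 18281; 433 at an unadjusted p under 0.05, 3 called by DESeq2 and 0 by limma-voom). Dhcr7 read 34.6, 25.8 and 22.7 CPM in old Gly-Low, around the old control values, with a log2 fold change of 0.002 ± 0.18. Idi1 read 41.3, 37.7 and 43.7 CPM, inside the old control range (-0.13 ± 0.29), and Sqle 114, 108 and 103 CPM (0.05 ± 0.18). Fdft1 was at -0.29 ± 0.25, Hmgcs1 at -0.13 ± 0.19 and Cyp51 at -0.12 ± 0.21. Fdps, at 0.47 ± 0.65, rested on 7 to 49 reads.

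The old Gly-Low libraries sat close together for Cyp51 (121, 122 and 127 CPM) and Hmgcs1 (276, 290 and 299 CPM), within the wider spread of old control. The SEs of the members other than Fdps were 0.18 to 0.29, so small differences were not detectable with these libraries. Of the other 14 enzymes 0 passed and 1, Tm7sf2, had an unadjusted p under 0.05 (-0.67 ± 0.29, adjusted p = 0.953). Of 10 oligodendrocyte markers 6 had an unadjusted p under 0.05 without passing the adjusted threshold, with a summed level of 8250 to 10000 CPM in old control and 5940 to 8360 in old Gly-Low; its part in the values of the enzymes was not tested.

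The 2 young control-diet groups, which differ in arm and by 1 month of age, give a measure of how far such groups lie apart. None of the 7 passed (0 in edgeR, 0 at an unadjusted p under 0.05, 0 in DESeq2), where 5.29% of all genes were called, 0.923% higher and 4.37% lower in acute control than in young control. Log2 differences ran from -0.26 ± 0.22 for Idi1 to 0.14 ± 0.17 for Dhcr7, with Fdps at 0.94 ± 0.53. In limma-voom, which called 6068 genes, Fdft1 passed at -0.31 ± 0.11 (adjusted p = 0.0368). Of the other enzymes 1 passed, Pmvk, at -0.64 ± 0.15 in acute relative to young control (adjusted p = 0.0242).

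The diet effect of the acute arm was then tested against that of the old arm, with all 20 libraries in a single fit, where 36.0% of genes were called, 19.2% with a higher and 16.8% with a lower value in the acute arm. The same 3 genes passed. Idi1 differed by 1.25 ± 0.33 (adjusted p = 0.00637), Sqle by -0.75 ± 0.21 (adjusted p = 0.00853) and Dhcr7 by -1.17 ± 0.25 (adjusted p = 0.00136). Hmgcs1 (-0.13 ± 0.23), Fdft1 (0.02 ± 0.26), Cyp51 (0.05 ± 0.23) and Fdps (-1.31 ± 0.79) did not pass. The arms differ in age, in the length of treatment and in the mitochondrial share and length slope of their libraries, which cannot be told apart here.

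Dhcr7 passed in each of 31 alternatives. Idi1 was lost without the 3 acute controls high in pituitary markers (0.97 ± 0.37, adjusted p = 0.07) and with the slope covariate (0.48 ± 0.45, adjusted p = 0.56), and Sqle with the length offset (-0.52 ± 0.24, adjusted p = 0.128). With the slope covariate Fdft1 passed at -1.06 ± 0.25 (adjusted p = 0.011). Of the other 14 enzymes 3 were called higher in the acute arm (Pmvk, Msmo1 and Tm7sf2) and 4 lower, among them Mvd (-1.12 ± 0.36) and Lss (-1.06 ± 0.30). With the slope covariate Pmvk (0.21), Msmo1 (0.16), Tm7sf2 (-0.27), Mvd (-0.46) and Lss (-0.22) were not called. Without the 3 acute controls high in pituitary markers Msmo1 (0.78), Tm7sf2 (0.92), Mvd (-1.02) and Lss (-0.83) were not. Leaving out old Gly-Low 1 ended the calls of Mvd (-0.80, adjusted p = 0.115) and Tm7sf2 (0.86, adjusted p = 0.0607), and Tm7sf2 was also lost without acute Gly-Low 1 (0.81) or old control 3 (0.74). With the length offset Pmvk (0.11), Tm7sf2 (0.23) and Lss (-0.23) were not called.

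Within groups most members other than Fdps varied together from library to library, with Dhcr7 only loosely tied to the rest. As deviations of log2 CPM from the group mean over the 20 libraries, 14 of 15 pairs had a positive Pearson correlation, with a median of 0.76, from -0.10 (Dhcr7 with Cyp51) to 0.92 (Idi1 with Cyp51). Idi1 and Hmgcs1 followed each other within groups as well (r = 0.92), although Idi1 rose and Hmgcs1 did not pass in the acute comparison. On levels that keep the group differences the median of the 15 pairs was 0.505 and the lowest, Idi1 with Dhcr7, was -0.43. Dhcr7 was the member least tied to the others within groups. Its highest value was 0.50, with Sqle, and its other pairs without Fdps ran from -0.10 to 0.24. These are descriptions over 20 libraries that share depth and make-up. Correlations among pairs of other genes were not computed, so the values do not set the pathway apart from genes in general.

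In the control groups the libraries that were high for the members were also high in mitochondrial share. Young control 2 had the largest mitochondrial share of its group (17.2%) and the highest value for 5 of the 6 genes, acute control 1 (9.11%) for 5 of 6, and old control 3 (15.8%) for 4 of 6. At the other end, old control 4 (5.54%) held the lowest value of its group for 6 of 6 genes, young control 4 (5.73%) for 5 of 6 and acute control 2 (5.35%), which is also the library highest in pituitary markers, for 5 of 6. In acute Gly-Low the library with the smallest share, number 3 (17.0%), held the lowest value for 5 of 6, while library 4 (21.3%) held the highest for 3 and library 1, with the largest share (23.3%), the highest for 1 and the lowest for 1. In old Gly-Low no library held more than 3 of the 6 extremes at either end. The part of library make-up in these values was not tested.

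Among 15471 protein-coding genes, those whose level over the 20 libraries was most like the mean of the 7 (each centred and scaled) were Slitrk2 (r = 0.893), Fem1c (0.890), Chrm2 (0.881), Ugcg, Pcdh11x and Tacr3 (0.875 each). On deviations from the group means they were Tacr3 (0.909), Car8 (0.896), AW551984 (0.895), Nap1l3 (0.883), Mblac2 (0.882) and Nell1 (0.878). Tacr3, the neurokinin B receptor, was the gene on both lists. The ranks are by likeness over libraries that share depth and make-up.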

How the data were processed

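The authors deposited raw counts of reads per gene for 20 hypothalamic libraries; per the labels' protocols the libraries were poly-A selected and non-directional. Build GRCm38, featureCounts 1.5.0-p3, HISAT2 2.0.5 and DESeq2 1.20.0 are named, without roles, per the submitters' processing notes. The gene annotation is, like the strand option, not given in the sources used here. Of 54532 genes 54495 matched GENCODE vM21, the source of symbols, positions and transcript lengths (median of basic transcripts), and totals ran from 15848372 to 27399753 counts.

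Genes were kept with filterByExpr by group, scaled with TMM and tested with edgeR 4.0.16 (quasi-likelihood F test, R 4.3.3) with Benjamini-Hochberg adjustment over all genes tested and a threshold of 0.05. The acute diet was fitted on its 9 libraries, age and the old diet on the 11 of the ageing arm, and the young groups and the arm difference on all 20. Log2 fold changes carry their SE, and adjusted p-values come from edgeR except where DESeq2 or limma is named. Alternatives were DESeq2 1.42.0, limma-voom 3.58.1, other scalings and filters, other sets of libraries, the replicate number as a block, an offset from 40 bins of transcript length and the length slope as a covariate. The steps were tested on simulated data.

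The 7 members were given by symbol; they, the other gene lists and the alternatives were chosen with earlier results of these data known. Named from each other list are up to 4 genes with the smallest p among those called in each direction, 2 where none passed, and Srebf2 and Insig1 always; some genes that the rule takes are not reported here. Titles give same-numbered libraries, whose deviations from the group means correlated at 0.253 to 0.417 in all 3 pairs of the old diet comparison and not in every pair elsewhere. Promoter windows are from RefSeq, and motifs were searched in 250 bases before each start.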

Additional observations from a re-analysis of the deposited data

Results flagged for a closer look

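The diet effect differed between the acute and the old arm for 3 of the 7 genes by a test of the difference itself, in edgeR on all 20 libraries, where 36.0% of genes were called. The log2 difference, acute minus old, was 1.25 for Idi1 (adjusted p = 0.00637), -0.75 for Sqle (adjusted p = 0.00853) and -1.17 for Dhcr7 (adjusted p = 0.00136). Within the acute arm alone, Idi1 was higher in 4 of 4 acute Gly-Low libraries than in all acute controls, and Sqle and Dhcr7 were lower in 4 of 4. The share of all genes that separate these groups in this way was not counted, and 58.3% were called in the acute comparison. Over the alternatives the adjusted p ran from 0.000336 to 0.56 for Idi1, from 0.000752 to 0.128 for Sqle and from 0.000187 to 0.0307 for Dhcr7. The arms differ in age, duration of the diet and library make-up, which cannot be told apart. In 28 tests of groups of 4 or 5 libraries for a library far from the rest, 0 were found.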

How the results depend on the processing

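For the acute diet 3 to 5 of the 7 genes were called over 20 alternatives (3 to 4 when leaving out each library), 5 with the transcript-length offset. For age 2 were called with limma-voom and 0 otherwise, for the young groups 1 with limma-voom and 0 otherwise, for the old diet 0 throughout, and for the arm difference 2 to 3 (3 in each fit without 1 library). The offset gave acute log2 fold changes of 0.41 for Cyp51, -0.015 for Pmvk, -0.13 for Insig2 and -0.24 for Erg28, and the slope covariate 1.68 for Srebf2, 1.41 for Scap, 0.33 for Mbtps1, 1.78 for Srebf1, -0.54 for Erg28, 0.23 for Osbp and 2.02 for Fasn, opposite in sign to the reported values; the cause was not tested. In the arm difference the covariate gave -1.06 for Fdft1, 2.02 for Srebf2 and -0.27 for Tm7sf2. The covariate moved the median of all genes to 0.17 in the acute comparison, from -0.07.

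With the replicate block 3 genes were called for the acute diet, 0 for age, 0 for the old diet, 0 for the young groups and 3 for the arm difference, no different from the fits without it. Calls over all genes in the young groups went from 1009 to 0 with the block, and from 6859 to 8282 in the arm difference. The titles and descriptions number the old Gly-Low libraries differently, and a block by the description number also gave 0. In all, 894 of 908 values of the members kept their side of the threshold without a called change of sign, 66 of them with another sign and no call in either fit. Calls over all genes for age were 6, 388 with DESeq2, 3920 with limma-voom, 413 with the slope covariate and 0 on the 2 groups only; leaving out a library gave 0 to 6. For the acute diet they were 10005, 8171 with the offset, 3807 with the covariate and 7177 without the 3 acute controls high in pituitary markers. For the young groups they ran from 0 to 3957 when leaving out a library, and were 1746 with DESeq2, 6068 with limma-voom, 231 with the offset and 0 with the covariate. Fdps rested on few reads (3 to 49), and for it a CPM filter left no value in the age and old diet comparisons.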
